A study of Ovis aries with 115 samples.

Results

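SERPINF2 encodes alpha-2-antiplasmin, and its level was examined in cervical RNA of 115 ewes of 4 sheep breeds in 3 states of the oestrous cycle, of which 1 ewe has conflicting labels and was placed in no group. It is 1 gene (ENSOARG00000014081) of the 27054 identifiers counted and of the 14811 that passed the filter on low counts. It was selected on its measured difference between Fur and Suffolk ewes at the synchronised follicular phase, so every comparison that uses those ewes is given here as a description, without a test. Suffolk and Belclare are Irish breeds of low and medium fertility after cervical insemination with frozen-thawed semen, and Fur and Norwegian White Sheep (NWS) are Norwegian breeds of high fertility. The Irish breeds were sampled in Ireland and the Norwegian ones in Norway, and an effect of breed cannot be told apart from one of country. In the follicular phase of a synchronised cycle there were 11 Suffolk, 10 Belclare, 8 Fur and 10 NWS ewes. In that of a natural cycle there were 8, 10, 10 and 10, and in the luteal phase of a synchronised cycle 10, 10, 9 and 8, in the same order. The study set the cycles of its synchronised follicular ewes with intravaginal progestagen sponges and equine chorionic gonadotropin. The synchronised luteal ewes are, like them, termed induced in the labels, and the natural ewes are labelled natural. The study's methods give its 39 synchronised follicular ewes as multiparous and 4 to 5 years old, with the cervix taken after death. Age and parity of the other ewes are not described there. Each ewe gave 1 library.

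Alpha-2-antiplasmin is a secreted serine protease inhibitor of the serpin family and the main rapid inhibitor of plasmin, the enzyme that dissolves fibrin. Tissue plasminogen activator, encoded by PLAT, converts plasminogen into plasmin, and alpha-2-macroglobulin, encoded by A2M, is a further inhibitor of plasmin with a broad range of proteases as targets. Most of the antiplasmin in plasma is made in the liver, while plasmin in the reproductive tract is known for its part in the turnover of extracellular matrix.

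Levels are given in CPM, the read count scaled to the normalised library size. The libraries held 12238996 to 31261671 counts (median 17835100), and 3 counts, taken as the detection floor, were worth 0.101 to 0.243 CPM. SERPINF2 was a gene of low level, with a median of 1.22 CPM over all grouped ewes. It had no read in 1 ewe, and 5 ewes held 3 counts or fewer. In 46 ewes it was below 1 CPM, in 62 it lay from 1 to 10 CPM, and in 6 it was above 10 CPM. Those 6 ewes held 52.5% of the CPM summed over all ewes, and the highest of them alone held 24.6%. Means in CPM therefore rest on few ewes, and medians and log2 values are given beside them.

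At the synchronised follicular phase, the Suffolk ewes ranged from 1.05 to 95.7 CPM with a median of 2.23, and the Belclare ewes from 0.825 to 8.67 with a median of 3.64. The Fur ewes ranged from 0.299 to 2.21 CPM with a median of 0.717, and the NWS ewes from 0.455 to 15.9 with a median of 1.11. Fur was thus the lowest breed by its median, and all Suffolk ewes were above the Fur median. The Suffolk mean of 11.2 ± 28.1 CPM (SD, n = 11) was set by replicate 3, with 95.7 CPM from 1487 reads. Without that ewe the Suffolk mean was 2.73 ± 1.55 CPM (n = 10), since the next ewe stood at 5.24 CPM. The Fur mean was 0.869 ± 0.629 CPM (n = 8).

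At the natural follicular phase, the Suffolk ewes ranged from 0.744 to 36.2 CPM with a median of 3.46, and the Belclare ewes from 0.315 to 11.3 with a median of 2.38. The Fur ewes ranged from 0.415 to 19.6 CPM with a median of 1.67, and the NWS ewes from 0.395 to 2.67 with a median of 1.20. All 4 breeds overlapped. The highest Suffolk, Belclare and Fur ewes stood apart from the next ewes of their breeds, which were at 4.40, 6.90 and 4.09 CPM.

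At the synchronised luteal phase, the Suffolk ewes ranged from 0.758 to 2.40 CPM with a median of 1.21, and the Belclare ewes from 0.106 to 25.4 with a median of 0.988. The Fur ewes ranged from 0.185 to 1.63 CPM with a median of 0.470, and the NWS ewes from 0 to 0.693 with a median of 0.294. In CPM all NWS ewes were below all Suffolk ewes, while their read counts, 0 to 14 and 11 to 32, overlapped. The Belclare ewes overlapped each of the other breeds, and ranged from 2 reads in the lowest ewe to 436 reads in replicate 7.

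**Figure D1:**
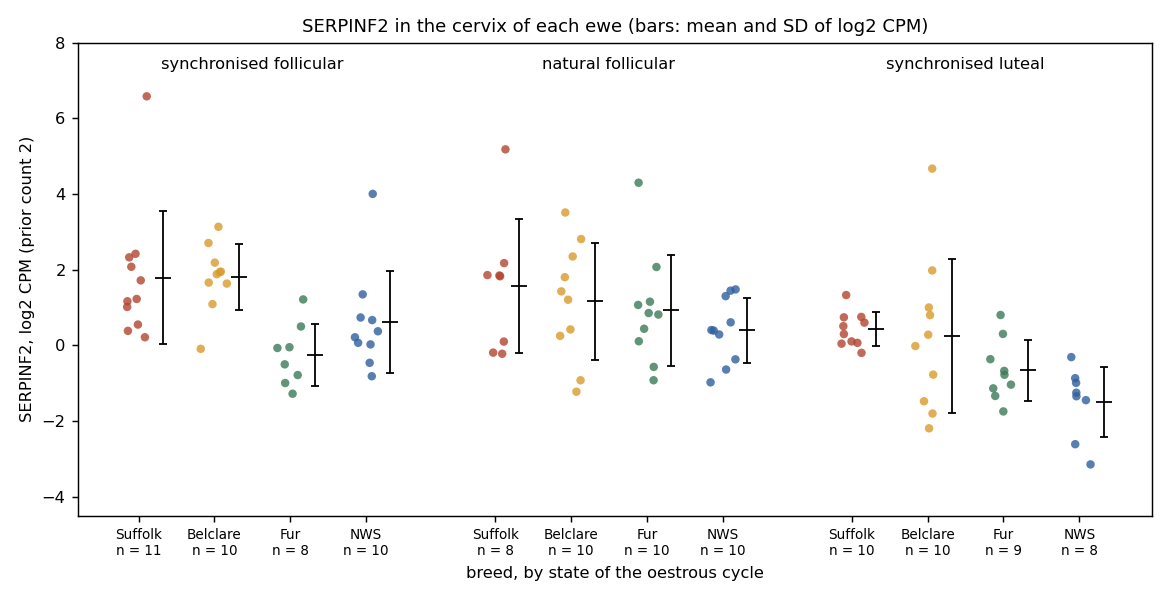
SERPINF2 in each grouped ewe as log2 CPM with a prior count of 2 (vertical axis), by breed within each state (horizontal axis), with 1 point per ewe and bars for the mean and SD. Single ewes stand far above their groups in 5 of the 12 groups, and the group of 8 NWS luteal ewes has the lowest mean.

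Ordered by mean log2 CPM, the groups ran from Belclare synchronised follicular (1.81 ± 0.88, n = 10) and Suffolk synchronised follicular (1.79 ± 1.76, n = 11) to Fur luteal (-0.66 ± 0.80, n = 9) and NWS luteal (-1.50 ± 0.93, n = 8). Of the 11 pairs of neighbours in this order, 10 differed by less than the SD of either group. The exception was Fur and NWS at the luteal phase, with a difference of 0.83. The luteal groups held 24 of the 46 ewes below 1 CPM, among 37 luteal ewes, against 11 of 39 synchronised follicular and 11 of 38 natural follicular ewes.

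The spread of SERPINF2 between ewes of the same group was wide for its mean level. Its biological coefficient of variation, the part of the spread between ewes that counting does not give, was 1.01, against a median of 0.401 for the 1000 genes nearest in mean level. Of those genes 30 varied more, and of all 14811 genes 212 did. The 6 ewes above 10 CPM raise both this mean level and the spread, and neither was computed without them.

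Luteal and follicular ewes of the same breed were compared first in NWS and Belclare, the breeds outside the contrast on which the gene was chosen. In NWS, SERPINF2 fell from a median of 1.11 CPM at the synchronised follicular phase to 0.294 CPM at the luteal phase, and 1 luteal ewe of 8 overlapped the follicular range. The log2 fold change (log2FC) was -3.07 ± 0.76 (SE) with an adjusted p of 0.00414 by edgeR, an 8.41-fold lower level. The threshold of an adjusted p under 0.05 and a fold change above 1.5 was passed by 22.1% of the genes tested in that comparison, 10.3% in the direction of lower luteal levels. The exact permutation test of mean log2 CPM, two-sided, gave p = 0.000183, or 0.00192 adjusted over the 21 comparisons of pairs of groups. Without NWS synchronised follicular replicate 9, the ewe at 15.9 CPM, the log2FC was -1.91 and still passed.

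In Belclare the medians were 3.64 CPM at the synchronised follicular phase and 0.988 at the luteal phase, yet the log2FC was -0.16 ± 0.75 with an adjusted p of 0.880, in a comparison where 22.4% of genes passed. This value rested on luteal replicate 7, at 25.4 CPM. Without that ewe the log2FC was -1.78 with an adjusted p of 0.0109 by edgeR. DESeq2 gave -1.63 with an adjusted p of 0.00411 over all ewes, and the permutation test of mean log2 CPM gave p = 0.0399, or 0.105 adjusted. The difference of the luteal change between NWS and Belclare was -2.91 ± 1.12, with an adjusted p of 0.244, where 0.493% of genes passed an adjusted p under 0.05, so the breeds were not shown to differ in it. It was -1.30 without Belclare luteal replicate 7 and -1.76 without NWS synchronised follicular replicate 9.

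Suffolk and Fur were described without a test for the synchronised phases. The log2FC of luteal against synchronised follicular ewes was -3.11 ± 0.80 in Suffolk and -0.48 ± 0.45 in Fur. The Suffolk value includes synchronised follicular replicate 3, at 95.7 CPM. The follicular mean was 2.73 CPM without that ewe, against 1.29 ± 0.481 CPM (n = 10) in the luteal ewes, and the medians were 2.23 and 1.21 CPM. Luteal ewes were also set against natural follicular ewes of the same breed, a comparison added after the data were seen, in which phase and synchronisation cannot be told apart. SERPINF2 was lower in luteal ewes of Suffolk (log2FC -2.38 ± 0.63, adjusted p = 0.0144 by edgeR), of Fur (-2.45 ± 0.67, adjusted p = 0.00721 by edgeR) and of NWS (-2.17 ± 0.51, adjusted p = 0.0105 by edgeR). The threshold was passed by 12.7%, 18.5% and 9.11% of all genes in these comparisons, 6.91%, 10.5% and 5.62% as lower. Belclare did not pass, where 19.7% of genes did, with a log2FC of 0.05 ± 0.83 and, without luteal replicate 7, of -1.56 with an adjusted p of 0.0654 by edgeR. The Suffolk result was lost without natural follicular replicate 9, the ewe at 36.2 CPM (log2FC -0.94, adjusted p = 0.0895 by edgeR). The exact permutation test for Suffolk gave p = 0.0541. Without natural follicular replicate 3, at 19.6 CPM, the Fur log2FC was -1.40 and still passed, with an adjusted p of 0.0176 by edgeR. In NWS the log2FC stayed between -2.46 and -1.99 with each of the 18 ewes left out, and always passed.

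Synchronised and natural follicular ewes were compared within breed. The log2FC of synchronised against natural was 0.20 ± 0.52 in Belclare, with a 95% interval from -0.81 to 1.22 and an adjusted p of 1, and 0.63 without natural follicular replicate 7, at 11.3 CPM. It was 0.93 ± 0.59 in NWS, with an interval from -0.22 to 2.08 and an adjusted p of 0.512. Neither passed, and few genes did, 0% in Belclare and 0.0135% in NWS by edgeR. In Belclare both edgeR and DESeq2 called 0 genes, and 291 had an unadjusted p under 0.05 in edgeR. For SERPINF2, without NWS synchronised follicular replicate 9 the NWS value was -0.26. In the breeds given without a test, the log2FC was 0.73 ± 0.97 in Suffolk and -1.96 ± 0.69 in Fur. The Suffolk medians ran the other way, 2.23 CPM in the synchronised and 3.46 in the natural ewes, and the group that was higher by log2FC holds the ewe at 95.7 CPM. The natural Fur ewes had a median of 1.67 CPM against 0.717 in the synchronised ones.

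Breeds were compared within each state, since the study was designed around their differences in fertility. At the luteal phase SERPINF2 was lower in both Norwegian breeds than in Suffolk. NWS ewes were 4.13-fold lower (log2FC -2.05 ± 0.42, adjusted p = 0.00732 by edgeR), where 4.35% of all genes passed the threshold and 1.45% passed as lower. The groups did not overlap, as for 0.5% of all genes. The exact permutation test, two-sided, gave the smallest p that 8 against 10 ewes allow, 4.57e-05, or 0.00096 adjusted over the 21 comparisons. With each of the 18 ewes left out the log2FC stayed between -2.34 and -1.87, and every such fit passed.

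Fur luteal ewes were 2.07-fold lower than Suffolk (log2FC -1.05 ± 0.35, adjusted p = 0.0273 by edgeR), where 13.8% of all genes passed and 7.4% passed as lower. The exact permutation test gave p = 0.0026, or 0.0136 adjusted. Below 1 CPM stood 7 of the 9 Fur ewes and 4 of the 10 Suffolk ewes, and the groups overlapped. The result was at the threshold: without Fur replicate 1, Fur replicate 3 or Suffolk replicate 5 the adjusted p by edgeR was 0.0513, 0.05002 and 0.0528. In a fit over all 12 groups, in which the spread of the groups with single high ewes enters, the luteal differences kept their size (-1.04 and -2.05) and the adjusted p by edgeR was 0.303 for Fur and 0.106 for NWS.

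Against Belclare luteal ewes, Fur (log2FC -2.51 ± 0.87, adjusted p = 0.0286 by edgeR) and NWS (-3.52 ± 1.01, adjusted p = 0.0186 by edgeR) were lower. The threshold was passed by 16.3% and 11.6% of all genes, 7.45% and 4.59% as lower. Both values rested in part on Belclare replicate 7. Without that ewe the Fur value was -0.88 with an adjusted p of 0.238 by edgeR, and the NWS value was -1.91 with an adjusted p of 0.0428. Belclare and Suffolk did not pass (1.45 ± 0.74, adjusted p = 0.228), where 2.43% of genes passed, and without the same ewe the direction turned to -0.16. NWS against Fur gave -1.01 ± 0.53, with a 95% interval from -2.04 to 0.02 and an adjusted p of 0.496, where 0.0405% of genes passed.

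At the natural follicular phase no pair of breeds passed the threshold for SERPINF2. NWS against Suffolk came nearest, with a log2FC of -2.25 ± 0.67 and an adjusted p of 0.0857, where 0.993% of all genes passed. DESeq2 gave -2.26 with an adjusted p of 0.0128, but without Suffolk replicate 9 the log2FC by edgeR was -0.81 with an adjusted p of 0.413. NWS against Belclare gave -1.28 ± 0.54 (adjusted p = 0.0921 by edgeR) and NWS against Fur -1.26 ± 0.59 (adjusted p = 0.415 by edgeR), where 13% and 0.0338% of genes passed. Without Fur replicate 3, at 19.6 CPM, the value against Fur was -0.21 with an adjusted p of 0.852 by edgeR. Fur against Suffolk gave -1.01 ± 0.82, with a 95% interval from -2.61 to 0.59 and an adjusted p of 0.389, where 9.62% of genes passed. Its direction turned without Suffolk replicate 9, to 0.42. Belclare against Suffolk gave -0.96 ± 0.77 (adjusted p = 0.681 by edgeR) and Fur against Belclare -0.03 ± 0.68 (adjusted p = 0.976 by edgeR), where 0% and 15.7% of genes passed. Between Belclare and Suffolk, edgeR called 0 genes, with 1443 at an unadjusted p under 0.05, and DESeq2 called 18.

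The breed differences were not shown to depend on the state. The Fur difference from Suffolk changed by 0.06 ± 0.83 log2 units between the natural follicular and the luteal phase, with a 95% interval from -1.57 to 1.68 (adjusted p = 0.983 by edgeR), where 1.45% of genes passed. It was -0.99 without Fur natural follicular replicate 3 and 1.496 without Suffolk natural follicular replicate 9. The NWS difference from Suffolk changed by -0.19 ± 0.93, with an interval from -2.02 to 1.63 (adjusted p = 0.991 by edgeR), where 0.0135% of genes passed. Its direction turned without Suffolk natural follicular replicate 9, to 1.23.

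At the synchronised follicular phase, the log2FC against Suffolk was -3.68 ± 0.98 in Fur, -2.09 ± 0.89 in NWS and -1.50 ± 0.77 in Belclare, given as a description. These values include Suffolk replicate 3, which held 77.8% of the CPM of its group. Belclare was above Suffolk by the median (3.64 against 2.23 CPM) and by mean log2 CPM (1.81 against 1.79), the reverse of its log2FC. Without that ewe the Suffolk mean was 2.73 CPM, against 3.94 in Belclare, 2.65 in NWS and 0.869 in Fur, and NWS itself holds replicate 9 at 15.9 CPM. Fur against Belclare gave a log2FC of -2.17 ± 0.43, also untested. NWS against Belclare was open to a test and gave -0.57 ± 0.57 (adjusted p = 0.443 by edgeR), where 16.3% of genes passed. Without NWS replicate 9 it was -1.74 with an adjusted p of 0.00135 by edgeR, and the permutation test of mean log2 CPM over all 20 ewes gave p = 0.0315, or 0.0946 adjusted.

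**Figure D2:**
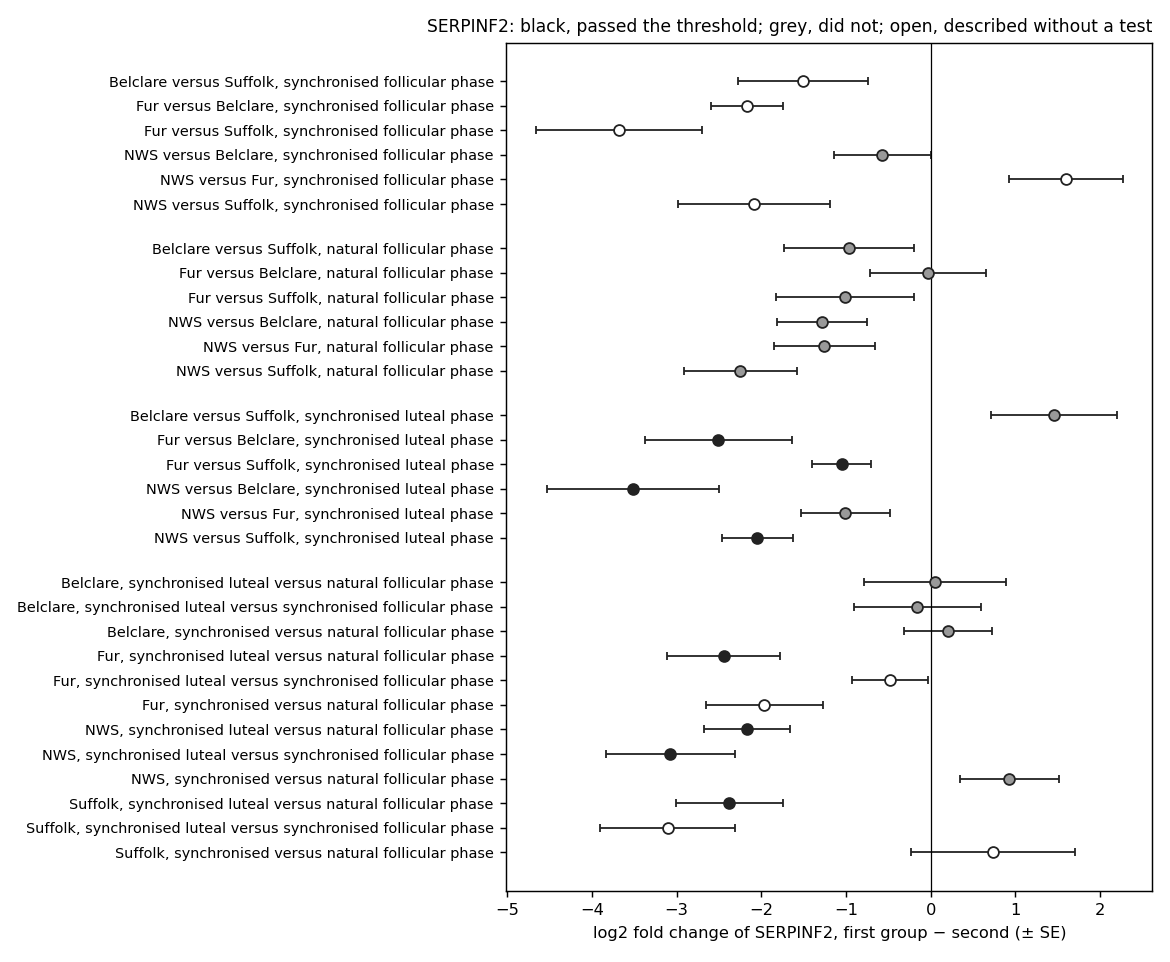
Log2 fold change of SERPINF2 with its SE (horizontal axis) in each comparison of a pair of groups (vertical axis), the first group named against the second. Black points passed the threshold, grey points did not, and open points use the synchronised follicular Fur or Suffolk ewes and were not tested. In the luteal block the NWS value against Suffolk is -2.05.

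The plasminogen system was followed through the 6 of 25 listed genes that could be matched to an identifier and were tested, SERPINF2 among them. Symbols were paired with identifiers only through the study's own gene tables, whose readable part favours genes higher in Suffolk, and plasminogen itself and PLAU were not matched. In NWS luteal against synchronised follicular ewes, 2 of the 6 rose, 1 fell and 3 did not pass, where 22.1% of all genes passed and 10.3% as lower, and the median log2FC was 0.10 against 0.01 over all genes. PLAT, the activator, rose (log2FC 0.80 ± 0.20, adjusted p = 0.00485 by edgeR), from a median of 117 to 229 CPM. FGB, the fibrinogen beta chain, rose by 1.23 ± 0.37 (adjusted p = 0.0129 by edgeR), while SERPINF2 fell. In Belclare PLAT also rose (1.17 ± 0.19, adjusted p = 6.99e-05 by edgeR). A2M fell there (-3.02 ± 0.83, adjusted p = 0.00629 by edgeR), as did LRP1, an endocytic receptor that clears protease-inhibitor complexes (-1.05 ± 0.19, adjusted p = 0.000191 by edgeR). Against natural follicular ewes, luteal PLAT rose in Suffolk (1.03 ± 0.29, adjusted p = 0.0176 by edgeR), Fur (0.62 ± 0.12, adjusted p = 0.000637 by edgeR) and Belclare (0.83 ± 0.31, adjusted p = 0.0393 by edgeR). In NWS it gave 0.65 ± 0.25 (adjusted p = 0.0798 by edgeR).

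Between breeds at the luteal phase, A2M moved opposite to SERPINF2. Median A2M was 4.03 CPM in Suffolk and 3.13 in Belclare, against 55.8 in Fur and 77.1 in NWS. It was higher than in Suffolk by a log2FC of 4.76 ± 0.62 in Fur (adjusted p = 0.000121 by edgeR) and 3.93 ± 0.49 in NWS (adjusted p = 0.000184 by edgeR). In both comparisons A2M was the 1 listed gene of the 6 that rose and SERPINF2 the 1 that fell, and the medians of the 6 were -0.47 and -0.51 against -0.02 and 0.00 over all genes. Those medians include SERPINF2 itself, and the matched symbols favour genes higher in Suffolk. All genes are therefore no fair reference for them. Of all genes, 13.8% passed in Fur and 4.35% in NWS, 7.4% and 1.45% as lower. PLAT did not pass in either, with -0.54 ± 0.22 in Fur and -0.45 ± 0.25 in NWS. Against Belclare luteal ewes, A2M was higher and PLAT lower in Fur (PLAT -0.77 ± 0.15, adjusted p = 0.000584 by edgeR) and in NWS (PLAT -0.68 ± 0.19, adjusted p = 0.015 by edgeR). F5, coagulation factor V, was also lower in NWS than in Belclare (-0.65 ± 0.20, adjusted p = 0.0254 by edgeR). At the natural follicular phase median A2M was 24.3 CPM in Suffolk, 13.1 in Belclare, 45.1 in Fur and 54.2 in NWS. At the synchronised follicular phase it was 11.6, 51.1, 52.0 and 43.4 CPM in the same order. Belclare there had the highest median of SERPINF2 as well, so the opposite order of the luteal phase did not hold.

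**Figure D3:**
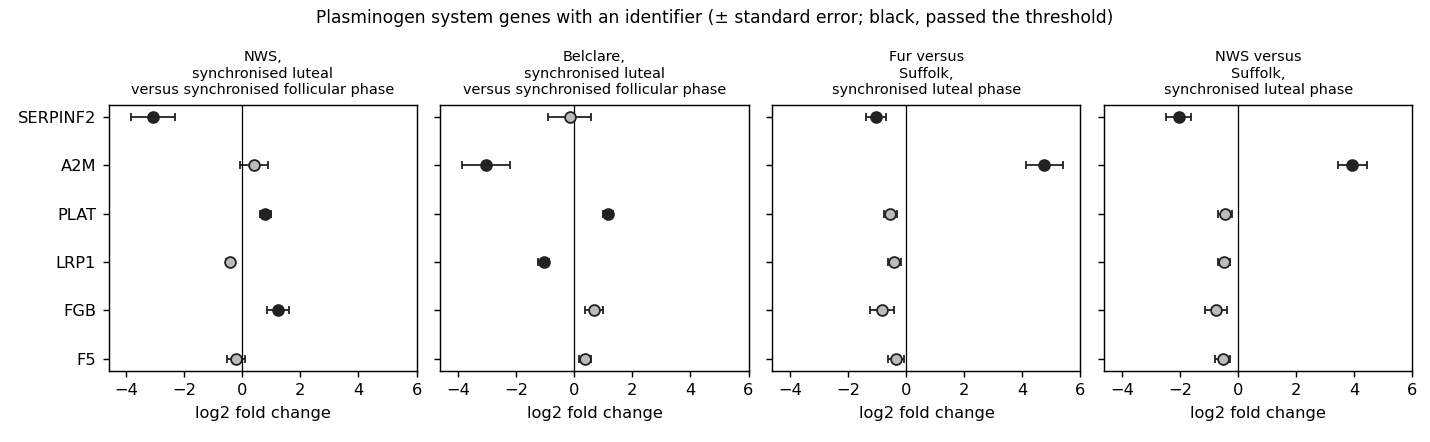
Log2 fold change with its SE (horizontal axis) of the 6 plasminogen system genes tested (vertical axis), in 4 comparisons, with black points for those that passed the threshold. SERPINF2 lies at -3.07 in the NWS luteal against follicular panel, and A2M at 4.76 and 3.93 in the panels of Fur and NWS against Suffolk.

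Of the serpins, 4 were matched and tested. SERPINA11, a secreted serpin, fell in luteal against synchronised follicular ewes in NWS (-1.75 ± 0.51, adjusted p = 0.0116 by edgeR) and in Belclare (-1.58 ± 0.36, adjusted p = 0.00158 by edgeR). SERPINC1, which encodes antithrombin, gave -0.18 ± 0.27 in NWS, and SERPINB6, an intracellular serpin, gave -0.14 ± 0.21 there. At the luteal phase SERPINF2 was the 1 serpin of the 4 that passed in Fur and in NWS against Suffolk, where 13.8% and 4.35% of all genes passed. The only neighbouring gene in the RefSeq gene order of the assembly ARS-UI_Ramb_v3.0 that could be matched was WDR81, next to SERPINF2. WDR81 was lower in Fur than in Suffolk at the luteal phase (-0.67 ± 0.10, adjusted p = 0.000357 by edgeR), and in NWS luteal against synchronised follicular ewes it gave 0.08 ± 0.10.

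Markers of other cell types moved with these comparisons, and their part in the SERPINF2 results was not tested. In bulk tissue, fewer cells of a type cannot be told apart from less RNA per cell. Summed over the 3 smooth muscle markers matched of 6, the luteal ewes ranged from 318 to 981 CPM in Suffolk, from 583 to 9407 in Fur and from 919 to 3882 in NWS. Of 15 secretory and columnar epithelium markers tested of 19 listed, 7 were lower in Fur and 3 in NWS than in Suffolk at the luteal phase, MUC5AC, a gel-forming mucin of the cervix, among them in both, and none were higher. Of all genes, 7.4% passed as lower in Fur and 1.45% in NWS. Of 12 leukocyte markers tested of 13 listed, 10 were lower in Fur and 3 in NWS, against the same 7.4% and 1.45% of all genes. The matched symbols favour genes higher in Suffolk, which tilts these epithelial and leukocyte counts. The shares of all genes are therefore no fair reference for them. In NWS luteal against synchronised follicular ewes, 2 epithelial markers rose and 3 fell, 1 leukocyte marker rose and 1 fell, and 5 of 7 fibroblast identifiers fell, where 22.1% of all genes passed and 10.3% as lower. Several of the 7 fibroblast identifiers are of the same gene, so they do not count as 7 separate markers.

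Liver markers were examined because the liver is the main source of plasma antiplasmin, and 13 of 29 could be matched, without albumin. In NWS luteal against synchronised follicular ewes, 4 rose (APOA1, COLEC10, FGB and THPO) and 4 fell (AHSG, RBP4, SERPINA11 and TTR), where 22.1% of all genes passed and 10.3% as lower. At the luteal phase 1 of the 13, CREB3L3, was lower in NWS than in Suffolk, and 4 were lower in Fur, against 1.45% and 7.4% of all genes. The tilt of the matched symbols towards genes higher in Suffolk applies to these counts too. The summed level of the 13 ranged from 108 to 213 CPM in Suffolk luteal ewes and from 83.8 to 154 in NWS luteal ewes. That sum mostly follows RBP4 and CFHR3. Their medians were 65.7 and 31.9 CPM in Suffolk luteal ewes, beside a median sum of 141. In NWS luteal ewes they were 45.3 and 19.5 CPM, beside a median sum of 105.

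The ewes of high SERPINF2 were described gene by gene. In Suffolk synchronised follicular replicate 3, RBP4, the plasma carrier of retinol, was at 828 CPM, where the other 10 ewes ranged from 108 to 388. SERPINA11 was at 9.98 CPM against 0.852 to 2.84, and LRP1 at 2181 against 634 to 1369. The liver sum of that ewe was 944 CPM, the highest of the group, against a group median of 396. Suffolk natural follicular replicate 9 had the highest LRP1 of its group as well, at 2213 CPM against 550 to 1387, and the highest AHSG, a plasma glycoprotein, at 10.6 against 0.221 to 4.68. Belclare luteal replicate 7 held the highest liver sum of its group, 344 CPM against a median of 99.97, and the highest leukocyte sum, 254 CPM. In that ewe ORM2, an acute phase plasma protein, was at 54.1 CPM against 0.250 to 3.04. Fur natural follicular replicate 3, NWS synchronised follicular replicate 9 and Belclare natural follicular replicate 7 had ranks 2, 5 and 6 of 10 in the liver sum. RBP4 made up most of the liver sum in the Suffolk ewe at 944 CPM. Other sums were high in some of the same ewes. The fibroblast sum was the highest of its group in Suffolk synchronised follicular replicate 3, at 4726 CPM against a group median of 1870, and in Suffolk natural follicular replicate 9, at 2563 against 1769. The sum of 11 matrix proteases had rank 1 of 11 in the former, 2 of 8 in the latter, 1 of 10 in Fur natural follicular replicate 3 and 10 of 10 in Belclare luteal replicate 7. High SERPINF2 thus went with a high liver, fibroblast or protease sum in some of the 6 ewes and not in others, and the part of these sums in the SERPINF2 levels was not tested.

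The genes whose level varied most like that of SERPINF2 between ewes were named by Spearman correlation over the ewes of all 12 groups, after each group was centred on its mean log2 CPM. Among genes with a symbol these were HSD11B1 (rho 0.50), which regenerates active glucocorticoid, A2ML1 (0.50), a protease inhibitor related to alpha-2-macroglobulin, and STRA6 (0.46), the cell surface receptor for RBP4. They were followed by TMEM132A (0.45), PLBD2 (0.45), SERPINA11 (0.44), AHSG (0.44) and CXCL14 (0.44), a chemokine. Only 1338 of the genes tested had a symbol. Over all genes HSD11B1 had rank 4 and CXCL14 rank 17, and the highest rho, 0.59, belonged to a gene without a symbol. The median rho over the 14810 other genes was 0.01 and the 99th percentile 0.34. The points share libraries and depth, and the values are a description. All 8 stayed in the first 8 named genes without the highest ewe, and 6 without the 6 ewes above 10 CPM. Without centring, 3 did. Without those 6 ewes the rho of HSD11B1 was 0.44 and that of A2ML1 0.42. PLAT had a rho of -0.25, FGB of -0.21 and A2M of -0.03, where the lowest over all genes was -0.52. The sign of the A2M value differed by state. Within the luteal groups it was 0.38, within the natural follicular groups -0.40 and within the synchronised follicular groups -0.05. PLAT and FGB had negative values in each state.

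HSD11B1 and STRA6 were lower in luteal than in synchronised follicular ewes. The log2FC of HSD11B1 was -2.15 ± 0.40 in NWS and -3.58 ± 0.39 in Belclare (adjusted p = 0.000614 and 1.56e-06 by edgeR). That of STRA6 was -2.38 ± 0.57 and -1.89 ± 0.33 (adjusted p = 0.00349 and 0.000175 by edgeR). Between NWS and Suffolk luteal ewes, where SERPINF2 differed, HSD11B1 gave 0.18 ± 0.33 and STRA6 -0.67 ± 0.63, and neither passed. SERPINF2 also passed between Fur and Suffolk luteal ewes, where HSD11B1 gave 0.46 ± 0.27 and did not pass. STRA6 was lower in Fur there (-1.98 ± 0.59, adjusted p = 0.0178 by edgeR). A2ML1 (-1.52 ± 0.28, adjusted p = 0.00096 by edgeR) and TMEM132A (-0.85 ± 0.18, adjusted p = 0.00276 by edgeR) were lower too. Of all genes, 7.4% passed as lower in that comparison.

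**Figure D4:**
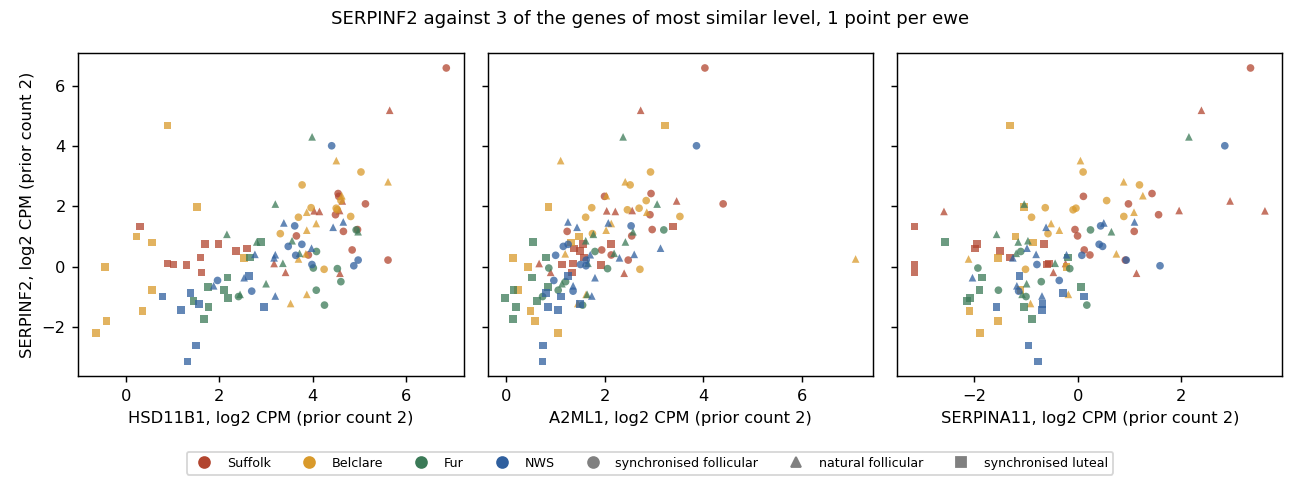
Log2 CPM of SERPINF2 (vertical axis) against log2 CPM of HSD11B1, A2ML1 and SERPINA11 (horizontal axes), with 1 point per ewe, colour for breed and shape for state, and no centring on groups. The ewe of highest SERPINF2 also has the highest HSD11B1, while Belclare luteal replicate 7 lies high for SERPINF2 and low for HSD11B1.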

How the data were processed

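Per the labels and the study's methods, polyA RNA of the cervix was sequenced with a stranded kit, in pairs of reads. The authors trimmed the reads with BBDuk, aligned them to Oar_v3.1 with STAR 2.6.1b and counted uniquely mapped pairs on Ensembl genes with featureCounts of Subread 1.6.3. The deposited values are raw read counts per gene and ewe, so pairs that match several places are already lost, and whether the strand was used in counting is not given in the sources used here. Total counts per ewe were 12238996 to 31261671. Of 115 ewes, 1 entered no comparison, since its labels contradict each other on cycle and phase. No pair of libraries of a group agreed within counting noise (lowest chi-square per degree of freedom 15.4 over 490 pairs).

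Tested were the 14811 genes that reached 1 CPM in 10 or more of the 39 ewes of the synchronised follicular phase. Each comparison was fitted on its own ewes with edgeR 4.0.16 in R 4.3.3, with TMM normalisation, the quasi-likelihood F test and Benjamini-Hochberg adjustment over all genes. A gene passed with an adjusted p under 0.05 and a fold change above 1.5, and an interaction with an adjusted p under 0.05. The SE is the size of the log2FC divided by the square root of F. Log2 CPM used a prior count of 2. Permutation tests were exact, or drew 100000 resamples where both groups had 10 ewes. Counting intervals and floors cover counting error only. The test was tried on simulated counts. The alternatives were DESeq2 1.42.0, other normalisations, filters and prior counts, a joint fit of all 12 groups, a block for the replicate number, and ewes left out. The gene was given, and the lists were chosen with earlier results of these data known. Named are SERPINF2, the matched plasminogen, serpin, neighbour and liver genes, MUC5AC, and the 8 most similar genes with a symbol. Other markers are given as counts. ORM2, LRP1, RBP4 and AHSG in single ewes were chosen after their values were seen. Symbols came from the study's tables for 1352 identifiers. No coordinates or sequences are given.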

Additional observations from a re-analysis of the deposited data

Results flagged for a closer look

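In 5 of the 11 groups of 4 to 10 ewes, 1 ewe stood apart from the others of its group in SERPINF2, by a gap to the nearest ewe that was large against the range of the group. Chance gives this in about 1 in 20 groups where values are close to normal. The check used CPM, in which SERPINF2 is skewed towards single high ewes, so that rate is no fair reference here. These ewes were Suffolk natural follicular replicate 9 (36.2 CPM, next ewe 4.40), Belclare luteal replicate 7 (25.4 CPM, next ewe 3.83), Fur natural follicular replicate 3 (19.6 CPM, next ewe 4.09), NWS synchronised follicular replicate 9 (15.9 CPM, next ewe 2.43) and Suffolk luteal replicate 5 (2.40 CPM, next ewe 1.57). In the group of 11 ewes, which was too large for this check, Suffolk synchronised follicular replicate 3 was at 95.7 CPM and the next ewe at 5.24. The 4 ewes above 10 CPM among the 5 were from all 4 breeds and all 3 states. They held 67.6%, 71.1%, 57.1% and 60.0% of the SERPINF2 CPM summed over their groups, in the order named.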

How the results depend on the processing

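Permutation tests are read here by their p before adjustment over comparisons. Beside leaving out ewes, 210 results under other settings were computed for the 24 comparisons tested, and 177 kept their direction and side of the threshold. Reversed directions came from comparisons that did not pass. For Belclare against Suffolk luteal ewes, DESeq2 gave -0.17, the permutation tests -0.18 for mean log2 CPM and -1.4 for mean rank, and the replicate block -0.14. For Belclare luteal against natural follicular ewes the same permutation tests and the block gave -0.92, -3.6 and -0.88. For NWS synchronised against natural, DESeq2 gave -0.25 and the rank test -0.4. The NWS and Suffolk interaction gave 0.56 under the block. Belclare luteal against synchronised follicular ewes passed with DESeq2 (-1.63), the block (-1.66) and, by unadjusted p alone, both permutation tests (-1.56 and -5.8, adjusted p = 0.105 and 0.0839). NWS against Belclare passed with DESeq2 at the natural follicular phase (-1.30) and, by unadjusted p alone, with both permutation tests at the synchronised one (-1.19 and -6.4, adjusted p = 0.0946 and 0.0522), and NWS against Suffolk natural ewes with DESeq2 (-2.26) and all groups in one fit (-2.24). Fur against Belclare luteal ewes did not pass with DESeq2 (-0.84), the permutation tests (-0.91 and -2.11) or the block (-1.51). NWS against Belclare luteal ewes was lost with the rank test (-4.73) and the block (-2.30), and with the test of mean log2 CPM once adjusted (-1.74, adjusted p = 0.0946). In one fit over all groups, Fur (-1.04) and NWS (-2.05) against Suffolk luteal ewes were lost, the latter under the block too (-2.14). Luteal against natural follicular ewes was lost under the block in Fur (-1.52), NWS (-2.16) and Suffolk (-1.17), and in Suffolk with the permutation tests (-1.15 and -3.15). The cause of these changes was not tested. Replicate numbers did not pair the ewes. In 0 of 21 comparisons did every same-numbered pair deviate together with a correlation over 0.1, and median correlations were -0.21 to 0.16. The fit without each of the 6 ewes above 10 CPM was chosen after seeing the data.
With single ewes left out, the log2FC ranged from -1.39 to 0.46 for Belclare against Suffolk natural ewes, from -1.07 to 0.40 for Fur against Belclare natural ewes, from -2.06 to 0.42 for Fur against Suffolk natural ewes and from -2.42 to -0.81 for NWS against Suffolk natural ewes, which passed without Suffolk replicate 6 (adjusted p = 0.0362 by edgeR). It ranged from -1.56 to 0.48 for Belclare luteal against natural ewes, from -1.38 to -0.92 for Fur against Suffolk luteal ewes, and from -3.37 to -1.91 for NWS luteal against synchronised follicular ewes. The Fur and Suffolk interaction ranged from -0.99 to 1.496. Single fits gave -0.16 for Belclare against Suffolk luteal ewes, -1.78 for Belclare luteal against synchronised follicular ewes, -0.88 for Fur against Belclare luteal ewes, -1.74 for NWS against Belclare synchronised follicular ewes, -0.26 for NWS synchronised against natural, -0.94 for Suffolk luteal against natural and 1.23 for the NWS and Suffolk interaction. At 3 counts or fewer, as in 5 ewes, differences were not detectable.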

Other observations

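The ewe whose title and other labels name different states had 0.75 CPM of SERPINF2 and was placed in no group.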
